A study of Homo sapiens with 24 samples.

Results

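The hypoxia response outside glycolysis was followed through 31 genes in 4 RNA-seq experiments with OE33, a cell line established from a human esophageal adenocarcinoma (EAC). The genes were taken by symbol from the 61860 Ensembl identifiers in the count tables, and each of the 31 symbols matched 1 row. They comprise the oxygen-sensing core (HIF1A, EPAS1, ARNT, VHL, HIF1AN, EGLN1, EGLN2, EGLN3), regulators of pH and secreted factors (CA9, CA12, VEGFA, ADM, STC2), mitochondrial genes (BNIP3, BNIP3L, FAM162A), collagen and matrix enzymes (P4HA1, P4HA2, PLOD1, PLOD2, LOX, LOXL2), histone demethylases (KDM3A, KDM4B, KDM4C) and other targets (NDRG1, ANKRD37, BHLHE40, ERO1A, ZNF395, WSB1).

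Cells sense oxygen mainly through the alpha subunits of the hypoxia-inducible factors (HIFs). While oxygen is present, prolyl hydroxylases modify these subunits, the VHL ubiquitin ligase binds the modified form and the proteasome degrades it. When oxygen falls, the subunits accumulate, pair with ARNT and bind short hypoxia response elements near genes for pH control, vessel growth, mitophagy and collagen processing, so much of HIF control acts on protein and is not seen in mRNA.

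Each of the 8 groups held 3 libraries. HFD and ND were OE33 tumors under the skin of male BALB/c-nu mice, which lack T cells, on a high-fat or a normal diet from 8 weeks before injection, and the tumors grew for 3 weeks. HA-TRIM15 and EV were cultured cells with a plasmid for tagged TRIM15, a ubiquitin ligase, or with the empty vector, taken at 48 h. shYY2 and shFOXRED1 were cultured cells at 72 h after a short hairpin against YY2, a transcription factor, or FOXRED1, a mitochondrial oxidoreductase, each with its own shControl. The sources do not say which hairpin was sequenced or whether libraries of a group were separate cultures or, for HFD and ND, separate mice. What was done with mouse reads in the tumors is not given either. The p-values therefore measure the spread between these libraries, which may be technical.

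Libraries held 14299807 to 45994561 counts, of which the 31 genes took 0.292% to 0.402%. The targeted genes followed the labels. TRIM15 was at 5.56 to 11.7 CPM (read counts scaled to library size, on one scale for all 24 libraries) in HA-TRIM15 and at 0 in EV. In the tumors TRIM15 was at 0.600 to 0.642 CPM in HFD and at 0 to 0.0367 CPM in ND. YY2 was at 0.602 to 0.729 CPM in shYY2 against 2.3 to 2.34 in its shControl, and FOXRED1 at 8.69 to 11.1 CPM in shFOXRED1 against 17.1 to 17.6 in its shControl. The 7 epithelial markers summed to at least 11282 CPM in every library. Human endothelial markers summed to at most 1.37 CPM and adipocyte markers to at most 1.49 CPM. Leukocyte markers summed to 7.92 to 10.7 CPM in the FOXRED1 experiment and to 2.13 to 5.88 CPM in the other libraries. In that experiment 4 of the 7 leukocyte markers (AIF1, CD163, PTPRC and TYROBP) had 0 counts in every shControl library. AIF1 and TYROBP also had 0 counts in every shFOXRED1 library, so the sum rests on few genes. The 6 libraries of the FOXRED1 experiment stood apart from the other 18 in both arms, with CA12 at 22.8 to 46.3 CPM against at most 7.01 CPM elsewhere, although their labels name the same cell line.

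Per length, HIF1A (ENSG00000100644, chr14:61695513-61748259, hg38) was the most abundant of the 31 genes, at a mean of 74.0 RPKM (CPM per kilobase of exon) over the 24 libraries. It was followed by ERO1A at 68.0 RPKM and P4HA1 at 49.0 RPKM. EPAS1, which encodes the HIF-2 alpha subunit (ENSG00000116016, chr2:46293667-46386703), reached 36.0 RPKM and ARNT 8.52 RPKM. Among the 3 prolyl hydroxylases the order was EGLN1 at 3.73, EGLN3 at 2.86 and EGLN2 at 1.33 RPKM. CA9, a membrane carbonic anhydrase often used as a hypoxia marker, was at 0.758 RPKM, and STC2, a secreted glycoprotein, at 0.0296 RPKM. STC2 had 0 counts in all 6 libraries of the FOXRED1 experiment and at most 12 in any other library, and it was too low to be tested in any comparison.

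Several members share exon sequence with other genes in the GENCODE 29 annotation, and whether the counting used strand is not settled. ARHGEF39, on the opposite strand, covers 38.5% of the CA9 exon bases, and UFSP2 covers 35.2% of those of ANKRD37. On the same strand, the readthrough gene RAB4B-EGLN2 and AC008537.1 share 30.6% of the EGLN2 exon bases, and FBXO16 shares 34.9% of those of ZNF395. BNIP3 has 39 pseudogenes by name in the same annotation, and how reads matching several places were counted is not given in the sources used here. Levels of these 5 genes are therefore uncertain.

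The promoters of the members on which the results below turn are shown as the 250 bases before the RefSeq start (GRCh38.p14), read 5′ to 3′ on the strand of the gene. Capitals mark the core of the hypoxia response element, searched as ACGTG and GCGTG and, for the other strand, as CACGT and CACGC, where a CACGTG counts on both strands. They lie at chr9:35673678-35673927 on the plus strand (CA9), chr15:63381847-63382096 on the minus strand (CA12), chr11:10304823-10305072 on the plus strand (ADM), chr4:185396591-185396840 on the plus strand (ANKRD37), chr3:4979187-4979436 on the plus strand (BHLHE40) and chr14:52695559-52695808 on the minus strand (ERO1A).
CA9: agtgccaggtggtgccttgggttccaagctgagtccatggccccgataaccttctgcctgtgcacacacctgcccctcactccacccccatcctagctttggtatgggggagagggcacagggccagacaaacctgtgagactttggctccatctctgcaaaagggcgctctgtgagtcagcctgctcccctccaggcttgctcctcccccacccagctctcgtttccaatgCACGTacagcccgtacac
CA12: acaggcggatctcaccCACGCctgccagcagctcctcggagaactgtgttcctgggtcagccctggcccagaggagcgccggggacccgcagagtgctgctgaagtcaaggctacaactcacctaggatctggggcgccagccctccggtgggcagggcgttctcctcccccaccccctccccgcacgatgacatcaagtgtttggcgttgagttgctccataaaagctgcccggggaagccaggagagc
ADM: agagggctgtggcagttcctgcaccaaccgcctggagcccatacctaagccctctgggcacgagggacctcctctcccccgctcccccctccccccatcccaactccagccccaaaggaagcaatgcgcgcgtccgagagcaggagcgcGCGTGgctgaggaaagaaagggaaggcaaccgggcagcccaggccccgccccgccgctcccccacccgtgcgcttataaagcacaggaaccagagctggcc
ANKRD37: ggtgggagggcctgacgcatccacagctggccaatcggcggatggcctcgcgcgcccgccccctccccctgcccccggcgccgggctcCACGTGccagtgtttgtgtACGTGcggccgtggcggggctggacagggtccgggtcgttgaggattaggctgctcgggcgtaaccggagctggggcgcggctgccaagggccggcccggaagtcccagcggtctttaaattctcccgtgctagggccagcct
BHLHE40: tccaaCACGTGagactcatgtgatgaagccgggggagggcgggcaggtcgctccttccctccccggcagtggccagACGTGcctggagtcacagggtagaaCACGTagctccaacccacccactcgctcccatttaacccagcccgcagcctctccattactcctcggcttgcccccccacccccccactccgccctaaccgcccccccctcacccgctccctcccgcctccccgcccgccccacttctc
ERO1A: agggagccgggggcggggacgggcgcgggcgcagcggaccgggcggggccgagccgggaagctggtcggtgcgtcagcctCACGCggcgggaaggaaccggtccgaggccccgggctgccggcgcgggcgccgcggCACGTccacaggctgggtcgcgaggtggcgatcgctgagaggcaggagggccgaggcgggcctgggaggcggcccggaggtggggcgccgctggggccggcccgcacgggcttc

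A core was found in 21 of the 25 members for which the table held a promoter, and in 43.1% of the 27305 genes with one. CA9 and ADM each had 1 match, at 18 and 101 bases before the start. The 4 members without a match in this window were ARNT, HIF1AN, EGLN3 and P4HA2. BHLHE40 had 4 matches and ANKRD37 had 3. A match is only a string of letters and does not show binding.

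**Figure D1:**
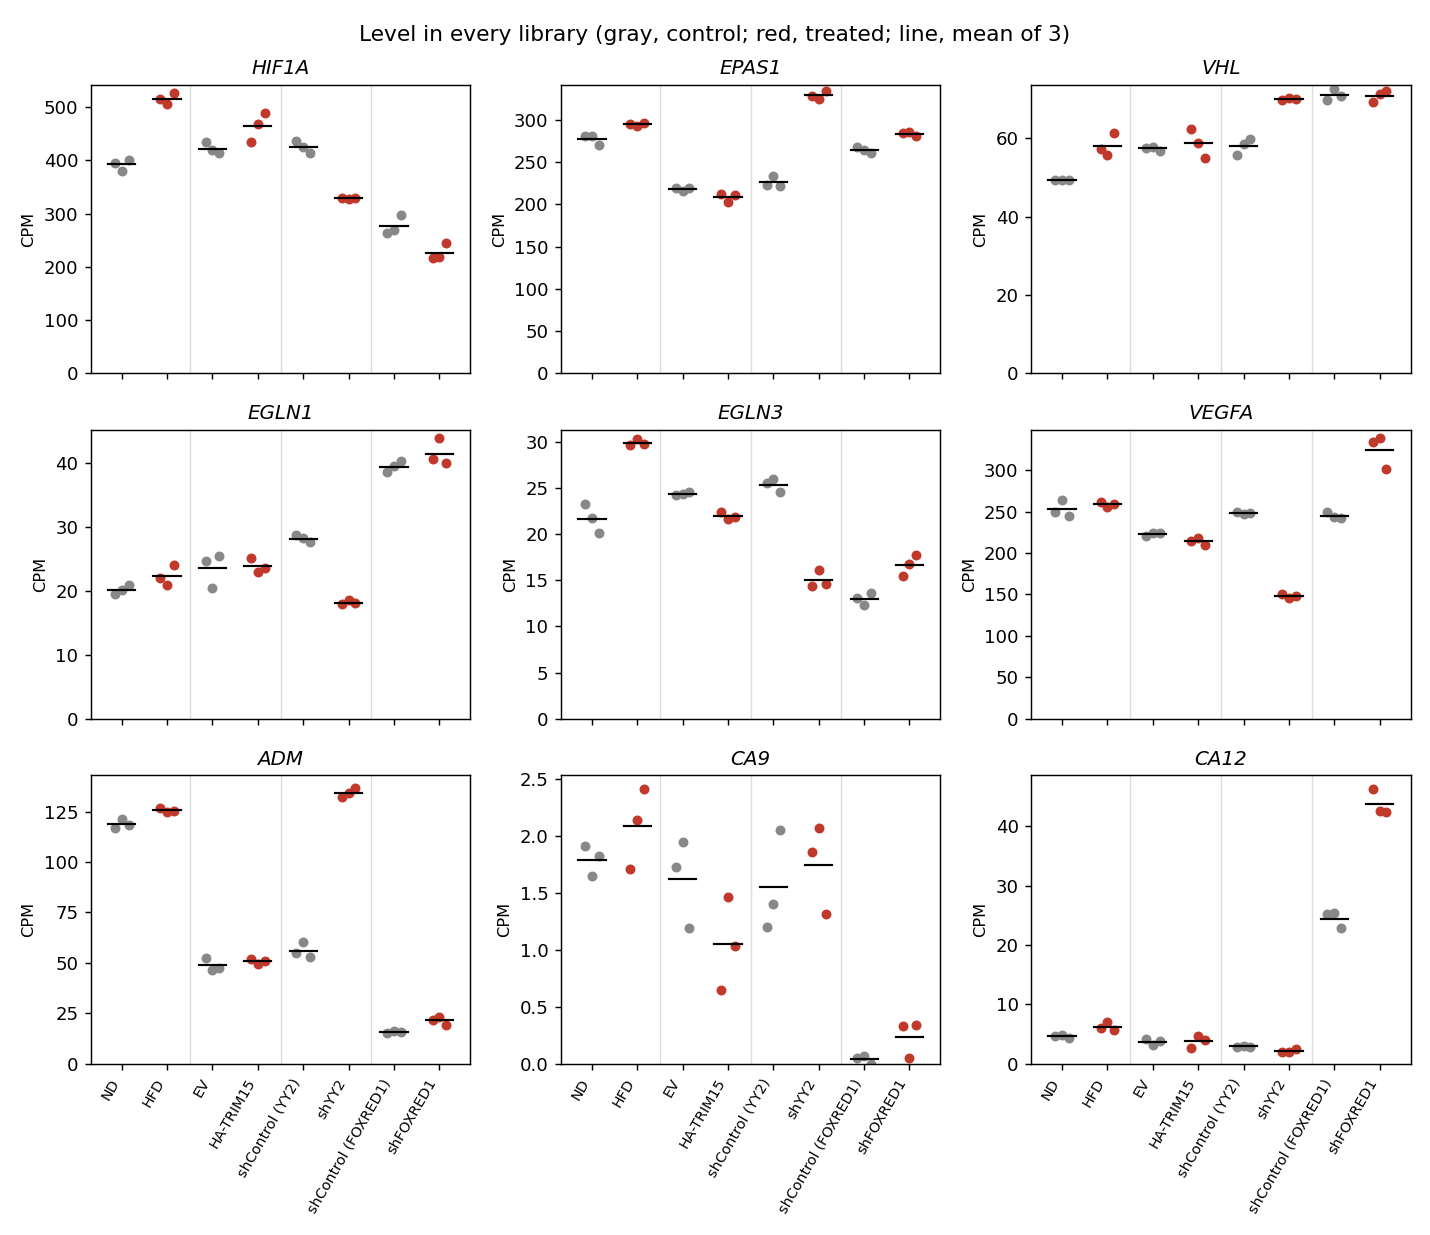
CPM of 9 members (y axes, linear from 0) in every library of the 8 groups (x axis), with a line at the mean of 3. CA12 stands at 22.8 CPM or more in both groups of the FOXRED1 experiment and at 7.01 CPM or less in the other 18 libraries, and CA9 at 0.34 CPM or less there and at 0.65 CPM or more elsewhere.

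The first comparison asked how the hypoxia genes differed between tumors of HFD and ND mice. Of the 30 members tested, 11 were higher and 5 lower in HFD at an adjusted p under 0.05, while of all 17012 genes tested 25.6% were higher and 23.9% lower (edgeR's quasi-likelihood test, Benjamini-Hochberg adjustment over all genes). The share of members called was 53.3% against 49.5% of all genes, a share near that background and therefore not a result about the members. Their median log2 fold change was 0.08, against -0.01 over all genes. Groups did not overlap for 13 higher and 6 lower members, 19 of 30, where 56.2% of all genes did not overlap (28.2% higher, 28% lower). The 11 higher members were HIF1A, EPAS1, VHL and EGLN3 of the core, CA12, BNIP3L, 3 of the 6 collagen and matrix enzymes, BHLHE40 and ERO1A. In these bulk samples, fewer cells of a type and less RNA per cell cannot be told apart.

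HIF1A, the gene for the HIF-1 alpha subunit, was at 514, 507 and 526 CPM in HFD and at 395, 381 and 400.5 CPM in ND. The 2 groups did not overlap, and HFD was 1.31-fold higher, a log2 fold change of 0.39 ± 0.03 SE (adjusted p = 7.35e-08). EPAS1 stood at 295, 293 and 297 CPM in HFD and 281, 281 and 271 CPM in ND, a difference of 0.08 that was barely called (adjusted p = 0.0467). VHL, the substrate-binding subunit of the ligase (ENSG00000134086, chr3:10141008-10152220), had 57.3, 55.7 and 61.4 CPM in HFD against 49.2, 49.3 and 49.3 CPM in ND and was 0.24 ± 0.04 SE higher on the log2 scale (adjusted p = 0.000243). All 3 genes were higher in every HFD library than in any ND library.

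The prolyl hydroxylases did not move together. EGLN3 (ENSG00000129521, chr14:33924231-34462774) had 29.8, 30.4 and 29.8 CPM in HFD and 23.3, 21.7 and 20.2 CPM in ND, 1.37-fold higher (log2 0.46 ± 0.06 SE, adjusted p = 5.29e-06). EGLN1 (ENSG00000135766, chr1:231363751-231425044), the main oxygen sensor of this family, had 21.9, 20.8 and 23.9 CPM against 19.4, 20.1 and 20.9 CPM, with overlapping groups, and was not called (log2 0.15, adjusted p = 0.055). EGLN2 went the other way, from 12.8, 13 and 12 CPM in ND to 10.1, 10.5 and 10.5 CPM in HFD (log2 -0.29 ± 0.07 SE, adjusted p = 0.00373). ARNT and HIF1AN, the asparagine hydroxylase that blocks HIF co-activators, were not called.

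Among the target genes, ERO1A, which re-oxidizes protein disulfide isomerase in the endoplasmic reticulum, had the largest rise. It was at 610.3, 616 and 589 CPM in HFD and 397, 378 and 376 CPM in ND, 1.58-fold higher (log2 0.66 ± 0.03 SE, adjusted p = 2.65e-10). BHLHE40, a transcriptional repressor, followed with 313, 303 and 310.4 CPM against 207, 215 and 213 CPM (log2 0.54 ± 0.03 SE, adjusted p = 1.89e-09). The lowest HFD library of each gene was far above the highest ND library. The largest falls were in KDM4B, ANKRD37 and EGLN2. KDM4B, a histone demethylase, fell from 70.9, 79.5 and 70.1 CPM in ND to 53.7, 54 and 53.9 CPM in HFD (log2 -0.46 ± 0.05 SE, adjusted p = 1.05e-06). ANKRD37 was at 3.52, 3.54 and 3.41 CPM in ND and 3.0, 2.83 and 2.59 CPM in HFD (log2 -0.33, adjusted p = 0.0342).

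Of the 6 collagen and matrix enzymes, P4HA2, PLOD2 and LOX rose. P4HA2, a catalytic subunit of collagen prolyl 4-hydroxylase, changed by 0.46 on the log2 scale, PLOD2, a collagen lysyl hydroxylase, by 0.29, and LOX, which cross-links collagen, by 0.41. P4HA1, the other prolyl 4-hydroxylase subunit measured, PLOD1, another lysyl hydroxylase, and LOXL2, a lysyl oxidase, were not called. Human fibroblast markers summed to 23.1 to 26.5 CPM in HFD and to 29.8 to 32.6 CPM in ND, with DCN and PDGFRA at 0 in ND and LUM at 0 in HFD. Of the 7 markers only COL1A1 was tested, and it was lower in HFD (log2 -0.33, adjusted p = 0.000254). In cultured shYY2 cells the same sum was 42.8 to 44.8 CPM, so it need not measure fibroblasts. The part of these markers in the result was not tested. BNIP3L, a mitophagy receptor, rose by 0.41, and CA12, a membrane carbonic anhydrase, by 0.41, while WSB1, a substrate receptor of a ubiquitin ligase, and ZNF395, a zinc finger protein, fell by 0.24 and 0.15. BNIP3, also a mitophagy receptor, FAM162A and the demethylases KDM3A and KDM4C were not called. VEGFA, the main vessel growth factor, was at 256 to 261 CPM in HFD and 244 to 264 CPM in ND (log2 0.03, adjusted p = 0.536), ADM, a vasodilator peptide, at 125 to 127 and 117 to 121 CPM (log2 0.08, adjusted p = 0.0736), and neither was called. CA9 had 1.71, 2.14 and 2.41 CPM in HFD and 1.91, 1.65 and 1.82 CPM in ND, with overlapping groups (log2 0.26, adjusted p = 0.219).

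Other hypoxia genes were mixed as well. Of 32 further hypoxia-induced genes outside glycolysis, 27 were tested, with 12 higher, 5 lower and a median of 0.04, with ARNT2 at 0.77 among the rises and PPP1R3C at -0.86 and CITED2 at -0.43 among the falls. Of 21 glycolytic hypoxia genes, 14 of 20 tested were higher and 3 lower (median 0.15), with PDK1 at 0.50 and ALDOA at 0.42 at one end and PFKFB4 at -0.24 and SLC2A1 at -0.17 at the other. Of the 16 calls in members, 13 held in every alternative run. EPAS1 lost its call without HFD replicate 1, 2 or 3 or ND replicate 1 or 3 (adjusted p from 0.057 to 0.128, log2 0.07 to 0.10), with the replicate block (adjusted p = 0.0627) and with no filter on low counts (adjusted p = 0.0656). ANKRD37 lost it without HFD replicate 2 or 3 or any ND library (adjusted p from 0.0516 to 0.172, log2 -0.34 to -0.26), with the block (adjusted p = 0.0601), with no filter (adjusted p = 0.132) and by the DESeq2 Wald test (adjusted p = 0.176). ZNF395 lost it without HFD replicate 2 (log2 -0.11, adjusted p = 0.066). Without HFD replicate 2, 3 members were called lower, a count given without the matching share of all genes.

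**Figure D2:**
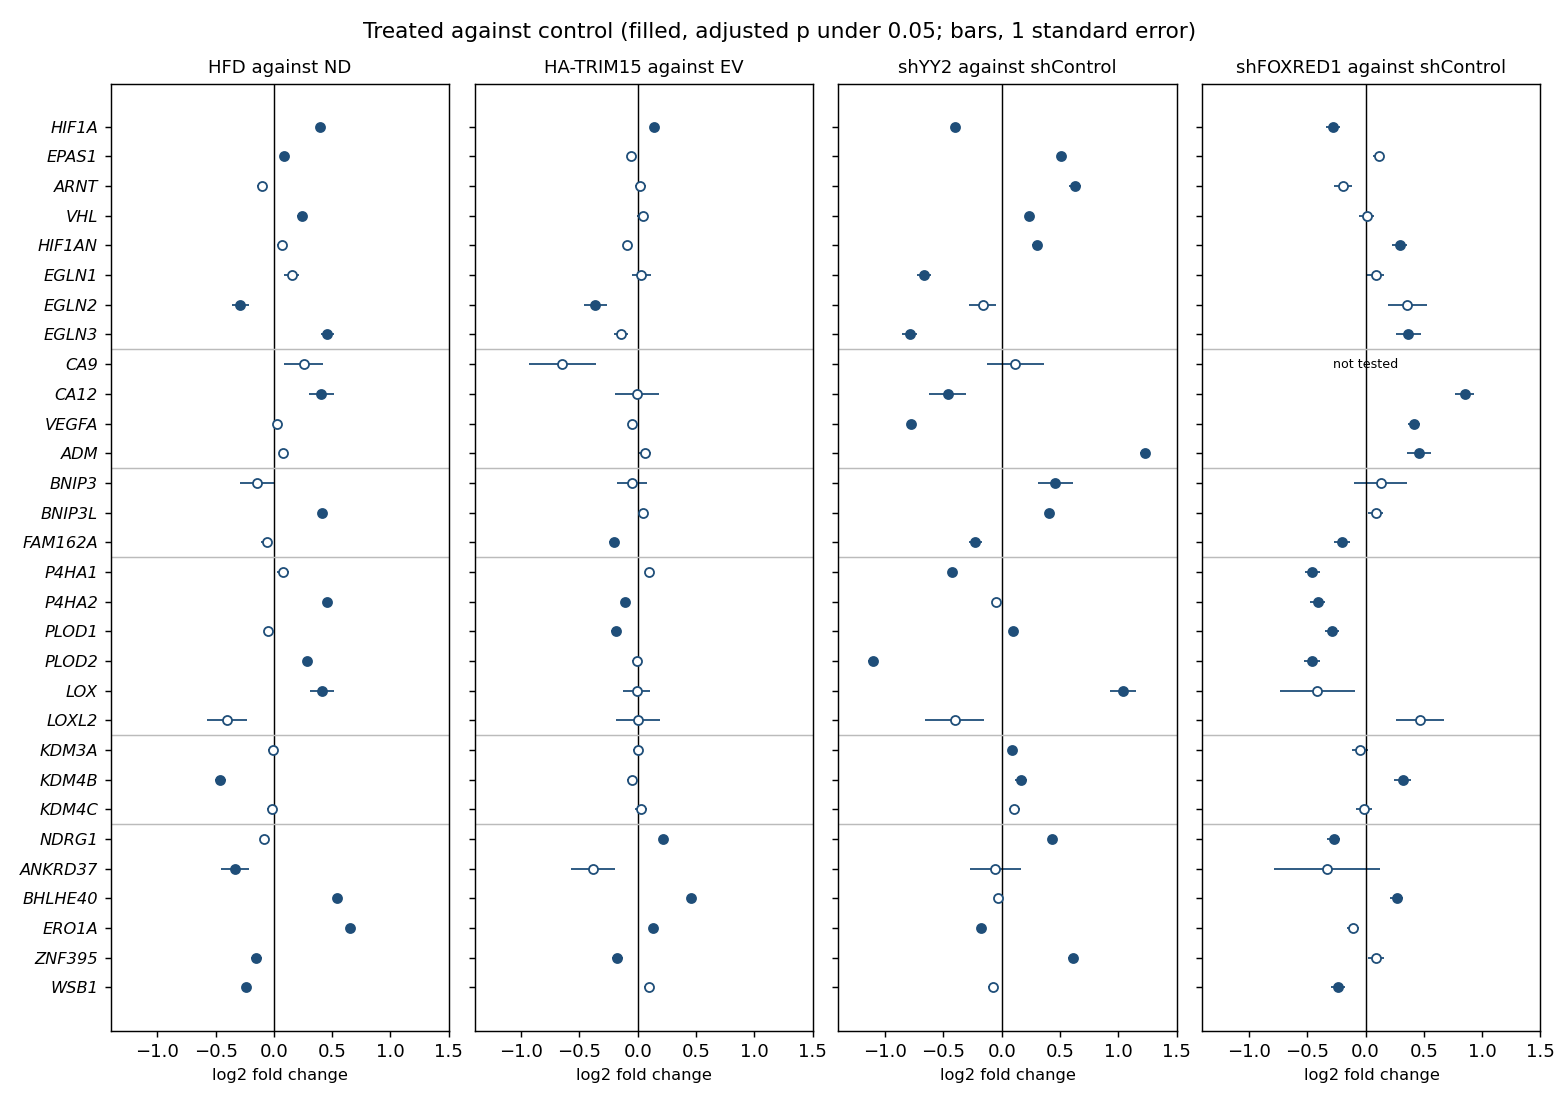
Log2 fold change (x axes) of the 30 members tested (y axis, grouped by role) in the 4 treated-against-control comparisons, with bars of 1 standard error and filled points where the adjusted p was under 0.05. HIF1A is right of 0 in HFD and HA-TRIM15 and left of 0 in both knockdowns, and the points spread furthest for shYY2, from -1.11 for PLOD2 to 1.23 for ADM. CA9 was not tested for shFOXRED1.

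HA-TRIM15 was set against EV to see which of these genes TRIM15 changed in culture. Of 30 members tested 4 were higher and 5 lower, where 12.5% of all 15745 genes were higher and 9.53% lower (22.1% in either direction). The median log2 fold change was -0.01 over the members and -0.01 over all genes. Groups did not overlap for 15 of 30 members, 5 higher and 10 lower, against 37.7% of all genes (20.1% higher, 17.6% lower). BHLHE40 and NDRG1 led the rises, and EGLN2 and FAM162A the falls. The called members belonged to the core, the mitochondrial genes, the collagen enzymes and the other targets.

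BHLHE40 was at 204, 207 and 206 CPM in HA-TRIM15 and 153, 149.9 and 149 CPM in EV, 1.37-fold higher (log2 0.46 ± 0.03 SE, adjusted p = 1.62e-07). NDRG1, a stress-responsive gene, had 499.9, 489.9 and 508 CPM against 434, 418 and 443 CPM (log2 0.21 ± 0.03 SE, adjusted p = 0.000259). ERO1A was at 451, 495 and 465 CPM against 425, 432 and 436 CPM (log2 0.13, adjusted p = 0.016). In all 3 the groups did not overlap, and the ERO1A ranges lay close together. EGLN2 had 7.52, 7.66 and 6.48 CPM against 9.43, 9.78 and 8.87 CPM (log2 -0.37 ± 0.10 SE, adjusted p = 0.0162). FAM162A, a mitochondrial protein, had 72.1, 77.3 and 72 CPM against 82.3, 88.4 and 84 CPM (log2 -0.20 ± 0.04 SE, adjusted p = 0.00434), and PLOD1 157, 136 and 139 CPM against 164, 164 and 166 CPM (log2 -0.19 ± 0.04 SE, adjusted p = 0.00773). These 3 were lower in every HA-TRIM15 library. ZNF395 (-0.18) and P4HA2 (-0.11) were also lower.

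HIF1A reached 434, 469 and 489.7 CPM in HA-TRIM15 and 434, 419 and 413 CPM in EV. It was called (log2 0.14, adjusted p = 0.0215), although the lowest HA-TRIM15 library lay close to the highest EV library, and with libraries scaled within this experiment alone the groups overlapped. EPAS1 (213, 203 and 211 against 219, 215 and 219 CPM), VHL (62.5, 58.8 and 54.9 against 57.6, 57.7 and 56.9 CPM) and EGLN1 (25.1, 22.9 and 23.6 against 24.7, 20.4 and 25.4 CPM) were not called. EGLN3 was at 22.5, 21.7 and 21.9 CPM against 24.2, 24.4 and 24.6 CPM, and the groups did not overlap, but it missed the threshold (log2 -0.14, adjusted p = 0.0927). CA9 had 13, 22 and 16 counts in HA-TRIM15 and 34, 43 and 31 in EV, or 0.652, 1.47 and 1.04 against 1.72, 1.95 and 1.2 CPM, with overlapping groups (log2 -0.65, adjusted p = 0.12). VEGFA and ADM differed by -0.05 and 0.06 and were not called.

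Other hypoxia genes outside glycolysis had 6 higher and 5 lower of 25 tested (median 0.04), led by RORA at 0.45 and DDIT4 at 0.31 and by PPFIA4 at -0.45 and RAB20 at -0.27. Of the glycolytic hypoxia genes 12 of 20 tested were lower (median -0.13), led by PFKFB4 at -0.26 and PFKL at -0.24. Of the 9 calls in members, 4 held in every alternative run. Without HA-TRIM15 replicate 3 or any 1 of the 3 EV libraries, 5 members were called in place of 9, counts given without the matching share of all genes. The 4 were BHLHE40, NDRG1, FAM162A and PLOD1. The call of HIF1A was lost without HA-TRIM15 replicate 2 or 3 or EV replicate 2 or 3 (adjusted p from 0.0785 to 0.119, log2 0.10 to 0.14). ERO1A lost it without HA-TRIM15 replicate 2 or any 1 EV library (adjusted p from 0.0617 to 0.0941, log2 0.09 to 0.13), and EGLN2 without HA-TRIM15 replicate 3 or EV replicate 1 or 2 (adjusted p from 0.0507 to 0.075, log2 -0.36 to -0.30). ZNF395 lost it without HA-TRIM15 replicate 3 or EV replicate 1 or 3 (adjusted p from 0.059 to 0.0703, log2 -0.18 to -0.14), and P4HA2 without HA-TRIM15 replicate 2 or 3 or any 1 EV library (adjusted p from 0.0687 to 0.146, log2 -0.13 to -0.10). EGLN2 and P4HA2 also lost their calls by the DESeq2 Wald test (adjusted p = 0.0619 and 0.0886).

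Knockdown of YY2 was set against its shControl, and it gave the widest changes. Of 30 members tested 13 were higher and 9 lower, where 36.8% of all 16006 genes were higher and 38.1% lower, and the share called, 73.3%, lay beside 75% of all genes. The median log2 fold change was 0.03 over the members and -0.01 over all genes. Groups did not overlap for 14 higher and 9 lower members, against 76.3% of all genes in either direction (37.5% higher, 38.8% lower). The oxygen-sensing core split. EPAS1, ARNT, VHL and HIF1AN rose, while HIF1A, EGLN1 and EGLN3 fell. VEGFA, PLOD2 and P4HA1 fell, and ADM, LOX, BNIP3L and NDRG1 rose, so known HIF targets stood on both sides.

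HIF1A was at 329, 327 and 329 CPM in shYY2 and 436, 425 and 413 CPM in shControl, 1.32-fold lower (log2 -0.40 ± 0.03 SE, adjusted p = 2.36e-09). EPAS1 went up, with 328, 324 and 335 CPM against 223, 233 and 222 CPM (1.42-fold, log2 0.51 ± 0.03 SE, adjusted p = 3.13e-10). ARNT, the common partner of both alpha subunits, had 74.8, 82.5 and 82.3 CPM against 53.1, 47.4 and 50.9 CPM (1.55-fold, log2 0.63 ± 0.05 SE, adjusted p = 1.01e-08). The 2 HIF alpha mRNAs thus moved in opposite directions, each with groups that did not overlap. EGLN1 had 17.9, 18.5 and 18 CPM against 28.6, 28.2 and 27.5 CPM (1.59-fold lower, log2 -0.67 ± 0.06 SE, adjusted p = 3e-08). EGLN3 had 14.4, 16.1 and 14.6 CPM against 25.6, 26 and 24.6 CPM (1.73-fold lower, log2 -0.79 ± 0.07 SE, adjusted p = 2.31e-08). VHL was at 69.8, 70.4 and 70.0 CPM against 55.8, 58.5 and 59.9 CPM (log2 0.24, adjusted p = 3.97e-05).

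ADM had the largest rise, from 54.9, 60.6 and 52.8 CPM in shControl to 132, 134 and 137 CPM in shYY2, 2.35-fold (log2 1.23 ± 0.04 SE, adjusted p = 5.82e-13). LOX was 2.06-fold higher, at 9.87, 9.11 and 9.03 CPM against 4.96, 4.45 and 3.9 CPM (log2 1.04 ± 0.11 SE, adjusted p = 5.55e-07). Both genes had wide gaps between the groups. PLOD2 had the largest fall, to 51.4, 53.8 and 49.3 CPM from 107, 109 and 109 CPM, 2.15-fold (log2 -1.11 ± 0.04 SE, adjusted p = 3.59e-13). VEGFA fell to 150.5, 146 and 148 CPM from 249.8, 247 and 248 CPM, 1.72-fold (log2 -0.78 ± 0.03 SE, adjusted p = 7.56e-13). ADM and VEGFA, both secreted and both taken as HIF targets, therefore moved in opposite directions in the same libraries. CA9 had 1.86, 2.06 and 1.31 CPM in shYY2 and 1.2, 1.4 and 2.05 CPM in shControl, with overlapping groups (log2 0.11, adjusted p = 0.681). The fibroblast markers summed to 42.8 to 44.8 CPM in shYY2 and 10.5 to 11.1 CPM in shControl in these cultures, with COL1A1 the 1 marker tested, and their part in the LOX result was not tested.

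Smaller rises were measured for ZNF395 (0.61), BNIP3 (0.46), NDRG1 (0.43), BNIP3L (0.41), HIF1AN (0.30), KDM4B (0.17), PLOD1 (0.10) and KDM3A (0.09). Smaller falls were measured for CA12 (-0.46), P4HA1 (-0.43), FAM162A (-0.23) and ERO1A (-0.18). Other hypoxia genes outside glycolysis had 14 higher and 7 lower of 26 tested (median 0.29), with ANG at 3.13 and TMEM74B at 1.70 highest and STC1 at -2.80 and FUT11 at -0.95 lowest. Of the 21 glycolytic hypoxia genes 14 were lower and 3 higher (median -0.31), with PDK1 at -1.38 and PGAM1 at -1.36 lowest and SLC2A3 at 1.08 and ALDOA at 0.17 highest. Of the 22 member calls 18 held in every alternative. CA12 lost its call without shYY2 replicate 1 or 2 (log2 -0.42 and -0.41) and BNIP3 without shYY2 replicate 2 (log2 0.38, adjusted p = 0.0522), and both by the DESeq2 Wald test (adjusted p = 0.121 and 0.0575). PLOD1 lost it without shYY2 replicate 1 or shControl replicate 3 (log2 0.08 and 0.06), and KDM3A without shYY2 replicate 3 or shControl replicate 2 (log2 0.08 and 0.06). KDM3A also lost it with no filter (adjusted p = 0.0709). FAM162A was -0.15 without shYY2 replicate 2 and KDM4B 0.11 without shControl replicate 3, both still called.

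FOXRED1 knockdown was compared with its own shControl, in the 6 libraries that stood apart. Of 29 members tested 7 were higher and 8 lower, and 16.8% of all 15730 genes were higher and 19.7% lower, while 51.7% of the members and 36.6% of all genes were called. The median log2 fold change was 0.01 over the members and 0.01 over all genes. Groups did not overlap for 9 higher and 9 lower members, against 46.7% of all genes (22.3% higher, 24.4% lower). Of the 5 pH and secreted genes 3 were tested, and these, CA12, ADM and VEGFA, were higher. Of the 6 collagen and matrix enzymes P4HA1, P4HA2, PLOD1 and PLOD2 were lower, while LOX and LOXL2 were not called.

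CA12 had 46.3, 42.6 and 42.4 CPM in shFOXRED1 and 25.2, 25.4 and 22.8 CPM in shControl, 1.8-fold higher (log2 0.85 ± 0.08 SE, adjusted p = 2.76e-07). ADM was at 21.9, 23.3 and 19.3 CPM against 15.3, 16.5 and 15.7 CPM (1.37-fold, log2 0.46 ± 0.10 SE, adjusted p = 0.00185). VEGFA was at 334, 339 and 302 CPM against 249.9, 244 and 242 CPM (1.33-fold, log2 0.42 ± 0.05 SE, adjusted p = 1.03e-05). Every shFOXRED1 library lay above every shControl library for these 3 genes. PLOD2 fell to 66.7, 63.7 and 71.2 CPM from 95.2, 86.9 and 96.4 CPM (log2 -0.46 ± 0.07 SE, adjusted p = 4.33e-05). P4HA1 fell to 91.1, 91.7 and 98.6 CPM from 123, 131 and 136 CPM (log2 -0.46 ± 0.06 SE, adjusted p = 1.69e-05), and P4HA2 to 68.5, 74.1 and 69.5 CPM from 94.1, 100.26 and 89.5 CPM (log2 -0.41 ± 0.06 SE, adjusted p = 7.67e-05). Fibroblast markers summed to 37.9 to 41.1 CPM in shFOXRED1 and 23.9 to 25.3 CPM in shControl, with COL1A2, DCN and PDGFRA at 0 in both groups. Of the 7 markers 1 was tested, and their part in these results was not tested.

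HIF1A fell to 216, 218 and 246 CPM from 264, 269.9 and 298 CPM (1.21-fold, log2 -0.28 ± 0.06 SE, adjusted p = 0.00178). EGLN3 was at 15.5, 16.8 and 17.8 CPM against 13.1, 12.4 and 13.6 CPM (log2 0.37, adjusted p = 0.012). EGLN1 (40.5, 43.8 and 39.9 against 38.5, 39.4 and 40.2 CPM) and VHL (69.2, 71.3 and 72.2 against 69.7, 72.4 and 70.8 CPM) overlapped between the groups and were not called. EPAS1, at 285, 285 and 281 CPM against 268, 264 and 261 CPM, did not overlap but missed the threshold (log2 0.11, adjusted p = 0.073). CA9 had 6, 1 and 5 counts in shFOXRED1 and 1, 1 and 0 in shControl and was not tested, and 3 counts correspond to 0.164 to 0.202 CPM in these control libraries. Smaller changes were called for KDM4B (0.32), HIF1AN (0.29) and BHLHE40 (0.27) upwards and for PLOD1 (-0.29), NDRG1 (-0.27), WSB1 (-0.23) and FAM162A (-0.20) downwards.

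Of other hypoxia genes outside glycolysis 4 were higher and 5 lower of 27 tested (median 0.05), with RIMKLA at 1.70 and HILPDA at 0.59 and, downwards, AK4 at -0.49. Of 20 tested glycolytic hypoxia genes 10 were lower and 3 higher (median -0.23), with ALDOC at -1.35 and GAPDH at -0.44 lowest and PFKFB3 at 0.78 and SLC16A3 at 0.54 highest. With the replicate number as a block, 9 members were higher and 10 lower in shFOXRED1, counts given without the matching share of all genes. The added calls were EPAS1 (log2 0.11, adjusted p = 0.0111), EGLN2 (log2 0.37, adjusted p = 0.0499), ARNT (log2 -0.19, adjusted p = 0.0231) and ERO1A (log2 -0.11, adjusted p = 0.00935). EGLN3 lost its call without shControl replicate 2 (log2 0.33, adjusted p = 0.0592), and FAM162A without shFOXRED1 replicate 2 or shControl replicate 2 or 3 (log2 -0.20 to -0.18, adjusted p from 0.0644 to 0.111).

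Whether both knockdowns acted alike on a member was tested as the shYY2 effect minus the shFOXRED1 effect. FOXRED1 itself fell with shYY2 (log2 -0.89, adjusted p = 3.31e-09) as well as with shFOXRED1 (log2 -0.78). The difference between these 2 falls was not called (-0.11, adjusted p = 0.48). FOXRED1 was at 16.3 to 19.4 CPM in shYY2 and at 17.1 to 17.6 CPM in the FOXRED1 shControl. The difference was called for 18 of 30 members, 10 higher and 8 lower, against 54.4% of all 17146 genes (26.4% higher, 28% lower). Among the called members the largest negative differences were in CA12 (-1.31 ± 0.17 SE, adjusted p = 1.05e-06), VEGFA (-1.20 ± 0.06 SE, adjusted p = 5.95e-13) and EGLN3 (-1.16 ± 0.12 SE, adjusted p = 3.29e-08). Each of these 3 fell with shYY2 and rose with shFOXRED1. The fitted difference of CA9 was -2.19 ± 0.97 SE and not called (adjusted p = 0.0629), from libraries of the FOXRED1 experiment with at most 6 counts. The largest positive ones were in LOX (1.47 ± 0.32 SE, adjusted p = 0.000579), ARNT (0.82 ± 0.09 SE, adjusted p = 8.19e-08) and ADM (0.77 ± 0.10 SE, adjusted p = 9.63e-07). ADM rose in both and further with shYY2. HIF1A fell in both, and the effects differed by -0.12 with an adjusted p of 0.148, which passed the threshold with the replicate number of each experiment as a block (-0.12, adjusted p = 0.0132). The difference in EGLN2 lost its call without shYY2 replicate 1 or 3, YY2 shControl replicate 1 or 2, shFOXRED1 replicate 1 or 2, or FOXRED1 shControl replicate 2 (log2 -0.56 to -0.36). The difference in LOXL2 lost it without shYY2 replicate 2, YY2 shControl replicate 1 or 3, shFOXRED1 replicate 2, or FOXRED1 shControl replicate 1 or 2 (log2 -0.89 to -0.64). With no filter both differences lost their calls (adjusted p = 0.0669 for EGLN2 and 0.0531 for LOXL2). The same held by the DESeq2 Wald test (adjusted p = 0.0669 and 0.0585), and EGLN2 also lost it with DESeq2 size factors (adjusted p = 0.0523).

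The diet effect was set against the HA-TRIM15 effect in the same way. The difference was called for 16 of 30 members, 13 higher and 3 lower, against 35.2% of all 17160 genes (21.5% higher, 13.6% lower). EGLN3 (0.63 ± 0.08 SE, adjusted p = 2.32e-06), P4HA2 (0.60 ± 0.05 SE, adjusted p = 5.68e-09) and ERO1A (0.56 ± 0.05 SE, adjusted p = 3.69e-08) had larger effects in the diet experiment. HIF1A differed by 0.28 ± 0.06 SE (adjusted p = 0.00044), with rises in both experiments. BHLHE40 was raised by both, and the difference of 0.12 (adjusted p = 0.0429) lost its call without any 1 of the 12 libraries other than HFD replicate 2 and ND replicate 2 (log2 0.10 to 0.13), and also with the replicate block (adjusted p = 0.0798), DESeq2 size factors (adjusted p = 0.0572), no filter (adjusted p = 0.184) and the DESeq2 Wald test (adjusted p = 0.0656). KDM4B (-0.38), WSB1 (-0.30) and NDRG1 (-0.27) differed the other way. CA9 had the largest difference, 0.93 ± 0.33 SE (adjusted p = 0.035), but was called in neither experiment and lost this call without HFD replicate 3, ND replicate 2, HA-TRIM15 replicate 1 or 3, or EV replicate 1 or 2 (log2 0.64 to 0.95). PLOD1 lost it without any 1 library other than HFD replicate 2, ND replicate 2 and HA-TRIM15 replicate 1 (log2 0.13 to 0.18) and LOX without HFD replicate 3, EV replicate 1 or EV replicate 3 (log2 0.37 to 0.43). By the DESeq2 Wald test the CA9 and LOX differences also lost their calls (adjusted p = 0.083 and 0.108). LOX lost it with no filter as well (adjusted p = 0.0843).

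**Figure D3:**
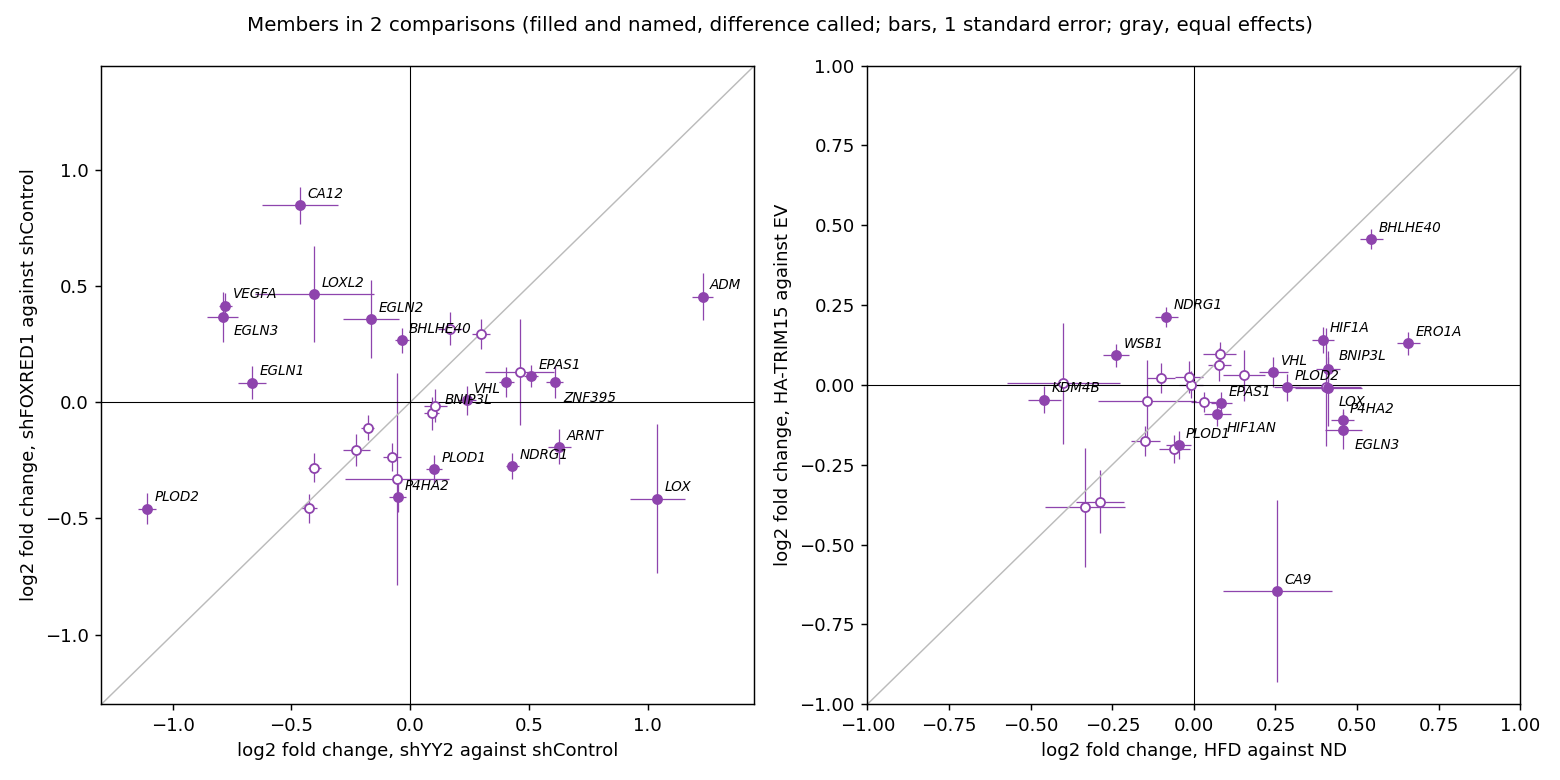
Log2 fold change of each member with shYY2 (x axis) and shFOXRED1 (y axis) on the left and with HFD (x axis) and HA-TRIM15 (y axis) on the right, with bars of 1 standard error, a gray line of equal effects and filled, named points where the difference itself was called. CA12, VEGFA and EGLN3 stand at the upper left on the left side, and BHLHE40 and ERO1A lie furthest right on the right side.

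The ND tumors were compared with the mean of the 3 cultured control groups, to show how the members stood in tumors and in culture. Growth as a tumor, the transfection of the cultured controls and the sequencing experiment cannot be told apart here. Of 30 members 16 were higher and 6 lower in ND, where 34.5% of all 17135 genes were higher and 31.9% lower (66.4% in either direction). The median log2 difference was 0.20 over the members and 0.03 over all genes. Groups did not overlap for 8 higher and 3 lower members, against 13% and 14.3% of all genes (27.3% in either direction). ADM, ANKRD37, EGLN2, KDM4B, BHLHE40, NDRG1, WSB1 and PLOD1 were higher in every ND library than in any of the 9 cultured controls, and ERO1A, HIF1AN and VHL were lower.

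ADM was at 117, 121 and 118 CPM in ND, at 46.7 to 52.6 CPM in EV, at 52.8 to 60.6 CPM in the shControl of the YY2 experiment and at 15.3 to 16.5 CPM in that of the FOXRED1 experiment (log2 1.73 ± 0.04 SE, adjusted p = 4.97e-21). Against the mean of EV and the YY2 shControl alone it was still 1.16. ANKRD37 had 3.52, 3.54 and 3.41 CPM in ND and 2.04 to 2.33, 2.1 to 2.62 and 0.336 to 1.53 CPM in the same 3 control groups (log2 1.00 ± 0.16 SE, adjusted p = 8.53e-06). EGLN2 had 12.8, 13 and 12 CPM against 8.87 to 9.78, 7.66 to 8.6 and 4.97 to 7.77 CPM (log2 0.64 ± 0.08 SE, adjusted p = 2.73e-07). All 3 were higher in ND against each control group taken alone. ERO1A was lower, at 397, 378 and 376 CPM against 425 to 436, 459 to 482 and 675 to 699 CPM (log2 -0.46 ± 0.03 SE, adjusted p = 2.63e-13). HIF1AN had 73.1, 66.7 and 71.9 CPM against 94.4 to 100.01, 79.7 to 87.3 and 83.6 to 95 CPM (log2 -0.38 ± 0.04 SE, adjusted p = 1.06e-08), and VHL 49.2, 49.3 and 49.3 CPM against 56.9 to 57.7, 55.8 to 59.9 and 69.7 to 72.4 CPM (log2 -0.35 ± 0.03 SE, adjusted p = 1.42e-09).

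The direction of other members turned on the FOXRED1 shControl. HIF1A was at 395, 381 and 400.5 CPM in ND, below 413 to 434 CPM in EV and 413 to 436 CPM in the YY2 shControl but above 264 to 298 CPM in the FOXRED1 shControl. It was not called against the mean of all 3 (log2 0.07, adjusted p = 0.0559), and without the FOXRED1 shControl it was lower in ND, at -0.13 (adjusted p = 0.000338). EGLN3 likewise went from 0.09 (adjusted p = 0.105) to -0.21 (adjusted p = 0.000761). CA12, called lower at -0.50, was higher without that group, at 0.46 (adjusted p = 0.000609). CA9 was at 1.91, 1.65 and 1.82 CPM in ND, within the range of 1.2 to 2.05 CPM in the YY2 shControl, and its fitted 1.83 was 0.14 without that group (adjusted p = 0.485). The 3 FOXRED1 shControl libraries had at most 1 count of CA9 each, so the fitted value is not a bound. The summed counts per library size were 42.4-fold higher in ND, with an exact 95% interval of 11.6 to 353 that covers counting error only. ARHGEF39, which shares exon bases with CA9, was at 28.8 to 30.9 CPM in ND, 23.5 to 25.9 CPM in EV and the YY2 shControl and 9.08 to 11.8 CPM in the FOXRED1 shControl, and its part in the CA9 counts was not tested.

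**Figure D4:**
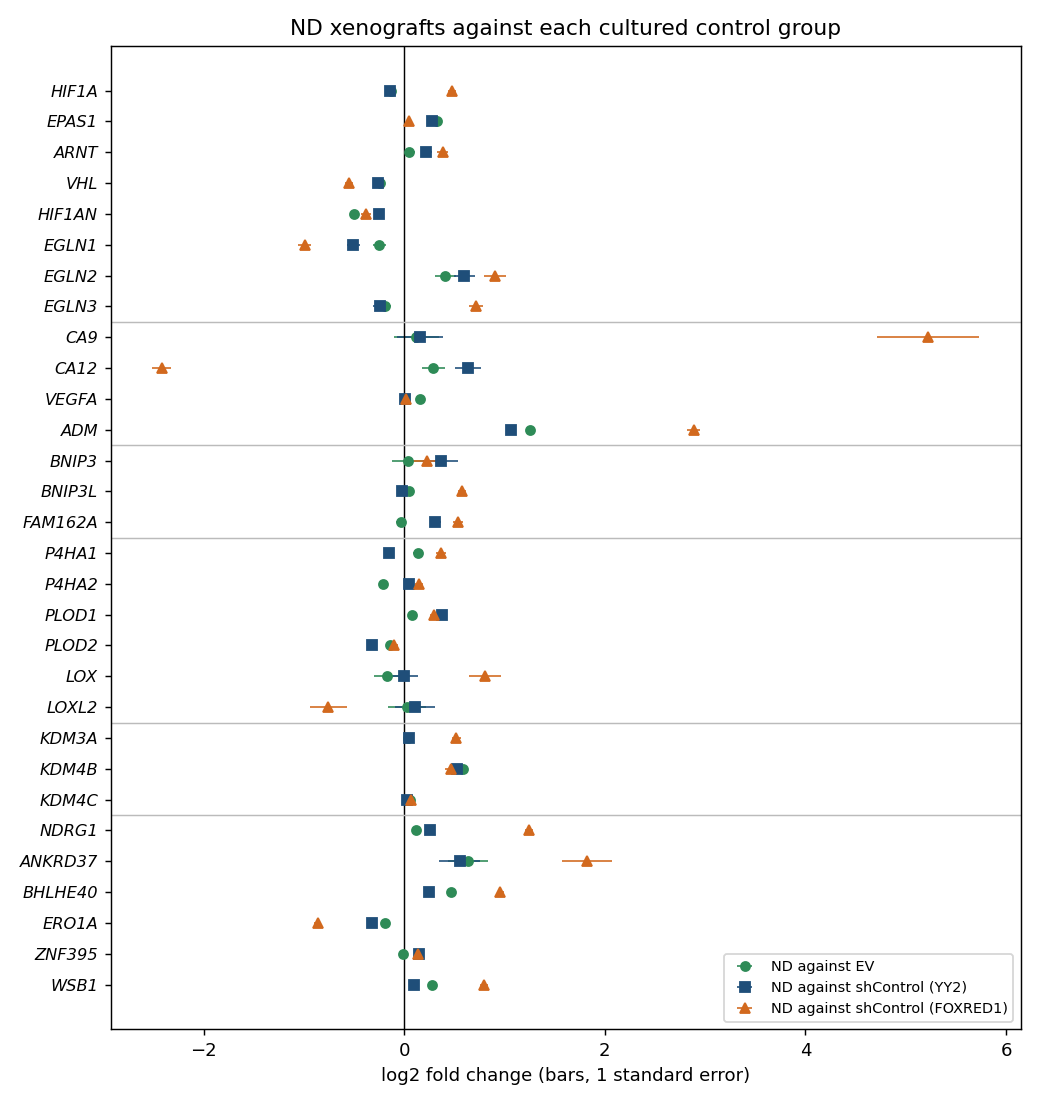
Log2 fold change of the ND tumors (x axis, bars of 1 standard error) against each of the 3 cultured control groups for the 30 members tested (y axis). CA12 lies right of 0 against EV (0.29) and the YY2 shControl (0.64) and far left of 0 against the FOXRED1 shControl, and ADM lies right of 0 against all 3. The point of CA9 against the FOXRED1 shControl is a fitted value against 2 counts in all.

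EPAS1 was at 281, 281 and 271 CPM in ND, above EV at 215 to 219 CPM and the YY2 shControl at 222 to 233 CPM, and close to the FOXRED1 shControl at 261 to 268 CPM (log2 0.22, adjusted p = 1.11e-07). EGLN1 had 19.4, 20.1 and 20.9 CPM in ND against 20.4 to 25.4, 27.5 to 28.6 and 38.5 to 40.2 CPM in the controls (log2 -0.58, adjusted p = 1.41e-09), with 1 EV library inside the ND range. VEGFA was at 244 to 264 CPM in ND and 221 to 224, 247 to 249.8 and 242 to 249.9 CPM in the controls, and the difference of 0.06 was not called (adjusted p = 0.0507). Among the genes also called, BHLHE40 was 0.56, NDRG1 0.54, KDM4B 0.53, WSB1 0.39, FAM162A 0.27, PLOD1 0.25, ARNT 0.22, KDM3A 0.20, BNIP3L 0.20, P4HA1 0.12 and ZNF395 0.09, and PLOD2 was -0.19. Without the FOXRED1 shControl, 13 members were higher and 8 lower, counts given without the matching share of all genes. The calls of KDM3A (0.05, adjusted p = 0.183), BNIP3L (0.01, adjusted p = 0.699), P4HA1 (-0.01, adjusted p = 0.913) and ZNF395 (0.07, adjusted p = 0.0766) were then lost. ANKRD37 at 0.60, ERO1A at -0.25, BHLHE40 at 0.36, NDRG1 at 0.19, WSB1 at 0.19, FAM162A at 0.14 and ARNT at 0.14 were still called, with smaller differences. Without ND replicate 1 the P4HA1 difference was 0.05 and not called, without ND replicate 2 it was 0.19, and ZNF395 lost its call without ND replicate 3, EV replicate 2, EV replicate 3 or FOXRED1 shControl replicate 2 (log2 0.07 to 0.08, adjusted p from 0.0502 to 0.11). ZNF395 also lost it by the DESeq2 Wald test (adjusted p = 0.0828). Fibroblast markers summed to 10.5 to 13.7 CPM in EV and the YY2 shControl, to 23.9 to 25.3 CPM in the FOXRED1 shControl and, as above, to 29.8 to 32.6 CPM in ND. Of these 7 markers 1 was tested, and their part in these results was not tested. Of the other lists, 16 of 26 tested hypoxia genes outside glycolysis were higher and 8 lower (median 0.32), with CITED2 at 1.60, STC1 at 0.97 and AK4 at -1.06 among those called, and 10 of 20 glycolytic ones were higher and 7 lower (median 0.08), with ALDOC at 0.58, ALDOA at 0.41, PDK1 at -0.62 and GBE1 at -0.45 at the ends.

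The 2 shControl groups, described with the same cell line and kind of control, were compared in the same fit. This shows the size of differences between the controls of 2 experiments, whose source was not tested. Of 30 members 17 were higher and 7 lower in the YY2 shControl, 80% in all, where 35.5% of all genes were higher and 33% lower (68.5% in either direction). Groups did not overlap for 14 higher and 7 lower members, against 69.1% of all genes (35.7% higher, 33.4% lower). The median log2 difference was 0.19 over the members and 0.03 over all genes. CA9 had 22, 24 and 41 counts in the YY2 shControl and 1, 1 and 0 in the FOXRED1 shControl, a ratio of 37.9 per library size with an exact 95% interval of 10.2 to 318 (adjusted p = 1.56e-08 for the difference). CA12 had 2.89, 3.04 and 2.9 CPM against 25.2, 25.4 and 22.8 CPM, 8.32-fold lower in the YY2 shControl (log2 -3.06 ± 0.11 SE, adjusted p = 2.37e-17). The 2 tumor-associated carbonic anhydrases therefore differed in opposite directions between 2 control cultures labeled as one cell line. ADM was at 54.9, 60.6 and 52.8 CPM against 15.3, 16.5 and 15.7 CPM, 3.53-fold higher (log2 1.82 ± 0.07 SE, adjusted p = 2.81e-17). ANKRD37 was at 2.62, 2.34 and 2.1 against 1.53, 0.927 and 0.336 CPM (log2 1.27 ± 0.28 SE, adjusted p = 0.000285), LOXL2 at 2.29, 1.46 and 1.8 against 3.34, 2.91 and 3.9 CPM (log2 -0.86 ± 0.20 SE, adjusted p = 0.000579) and ERO1A at 459, 472 and 482 against 685, 675 and 699 CPM (log2 -0.54 ± 0.03 SE, adjusted p = 2.9e-13). UFSP2, which shares exon bases with ANKRD37, was also higher in the YY2 shControl (log2 0.86, adjusted p = 5.46e-08). So was ARHGEF39, which shares exon bases with CA9 (log2 1.26, adjusted p = 1.47e-12). Their part in the ANKRD37 and CA9 counts was not tested.

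In the core, HIF1A (0.61) and EGLN3 (0.96) were higher in the YY2 shControl, and EPAS1 (-0.23), VHL (-0.29) and EGLN1 (-0.49) were lower, and VEGFA did not differ beyond its error (log2 0.02, adjusted p = 0.695). For HIF1A this gap between 2 control cultures, with ranges of 413 to 436 and 264 to 298 CPM, was larger in size than the effects of HFD (0.39), HA-TRIM15 (0.14), shYY2 (-0.40) and shFOXRED1 (-0.28), a difference that was not tested. Of the 24 calls 20 held in every alternative. ARNT lost its call without YY2 shControl replicate 1 or FOXRED1 shControl replicate 2 or 3 (log2 0.11 to 0.13) and EGLN2 without YY2 shControl replicate 1 or 2 or FOXRED1 shControl replicate 2 (log2 0.13 to 0.29). HIF1AN lost it without YY2 shControl replicate 1 or 2 or FOXRED1 shControl replicate 1 (log2 near -0.10) and was -0.19 without FOXRED1 shControl replicate 2, and P4HA2 lost it without YY2 shControl replicate 1 or 2 or FOXRED1 shControl replicate 1 or 3 (log2 0.04 to 0.10). By the DESeq2 Wald test EGLN2 (adjusted p = 0.0568) and P4HA2 (adjusted p = 0.126) lost it as well. With no filter HIF1AN (adjusted p = 0.0841) and P4HA2 (adjusted p = 0.0524) lost it, and P4HA2 also with DESeq2 size factors (adjusted p = 0.0935). Of the other hypoxia genes outside glycolysis 14 of 26 were higher and 9 lower (median 0.22), with STC1 at 3.53, PPFIA4 at 2.73, ANG at -2.57 and VLDLR at -1.51 at the ends. Of the glycolytic ones 18 of 20 were higher and 2 lower (median 0.76), with ENO2 at 1.83, GBE1 at 1.69, PFKL at -0.41 and PGM1 at -0.32 at the ends.

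Across the 4 treated-against-control comparisons, which share no libraries, HIF1A was the 1 member called in all 4, higher with HFD and HA-TRIM15 and lower with both knockdowns. As given above, its HA-TRIM15 call was lost without HA-TRIM15 replicate 2 or 3 or EV replicate 2 or 3. A further 11 members were called in 3 comparisons, of which FAM162A (lower) and BHLHE40 (higher) kept one direction. Of all genes, 49.5% were called for HFD, 22.1% for HA-TRIM15, 75% for shYY2 and 36.6% for shFOXRED1. How many of all genes were called in 3 or in all 4 was not counted, so these counts are not a result about the members. CA9, LOXL2 and KDM4C did not pass the threshold in these 4 comparisons where tested, although KDM4C was called for shYY2 with the replicate number as a block (0.11, adjusted p = 0.0475). KDM4C, a histone demethylase, varied least, from a group mean of 40.6 CPM in shFOXRED1 to 46.7 CPM in shYY2. CA12 spanned from 2.17 CPM in shYY2 to 43.8 CPM in shFOXRED1, and ADM from 15.8 CPM in the FOXRED1 shControl to 134 CPM in shYY2.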

How the data were processed

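RNA was sequenced from 24 libraries, and the authors deposited 4 tables of raw read counts per Ensembl gene, which were used as deposited. The submitters' processing notes name hg38 and mm10, while the aligner and the counter are not given in the sources used here. The labels and the study's methods name different library kits, so whether counts are strand-specific was not settled.

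Each experiment was fitted alone with edgeR 4.0.16 (R 4.3.3, quasi-likelihood test, TMM normalization, filterByExpr with a minimum count of 10 and a total of 15), and p-values were adjusted over all genes tested by the Benjamini-Hochberg method. The differences between effects and the comparisons of tumors and controls were fitted over the libraries involved. Standard errors (SE) were obtained from the size of each log2 fold change and its F statistic, as the ratio of the first to the root of the second. Printed CPM values were scaled by TMM over all 24 libraries, and RPKM used exon lengths from GENCODE 29. The fits were tested on simulated data, where the smallest changes were recovered least often and the share of false calls lay above the threshold in most comparisons. Replicates differed beyond sampling noise in all 24 pairs, with a chi-square per gene of 1.48 to 8.01.

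The members and gene lists were chosen with earlier results of these data known. All 31 members are named by role. Values in every library are given for HIF1A, EPAS1, VHL, EGLN1, EGLN3 and CA9 and for the 3 largest non-overlapping called members in each direction. For the other lists the 2 largest called genes in each direction are named, except 1 item that is not reported here. Effects of members that were not called are given for those 6 genes, VEGFA and ADM only.

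Replicate numbers recur in the labels of every group. Deviations from the group means of same-numbered libraries correlated above 0.1 for all 3 numbers in the FOXRED1 experiment, at 0.214, 0.127 and 0.414 over genes above 10 CPM, although over genes above 1 CPM they were 0.0535, 0.0374 and 0.153. In the other experiments at least 1 number fell below 0.1. Alternatives were DESeq2 size factors, the DESeq2 1.42.0 Wald test, no filter on low counts, the replicate number as a block, 1 scaling over all 24 libraries, each library left out in turn, and each culture control alone. A comparison of ND without the FOXRED1 shControl was chosen after seeing the data.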

Additional observations from a re-analysis of the deposited data

Results flagged for a closer look

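In 5 members the 2 knockdowns had called effects of opposite sign, and the difference itself, the shYY2 effect minus the shFOXRED1 effect, was called. Of all genes, 75% were called for shYY2, 36.6% for shFOXRED1 and 54.4% for the difference. The share of all genes that met the 3 conditions together was not counted. With 2 called effects of opposite sign, a called difference adds little. VEGFA fell with shYY2 (-0.78) and rose with shFOXRED1 (0.42), a difference of -1.20 on the log2 scale (edgeR, adjusted p = 5.95e-13). EGLN3 did likewise, at -0.79 and 0.37, a difference of -1.16 (adjusted p = 3.29e-08). For CA12 the effects were -0.46 and 0.85, a difference of -1.31 (adjusted p = 1.05e-06). NDRG1 went the other way, at 0.43 with shYY2 and -0.27 with shFOXRED1, a difference of 0.70 (adjusted p = 1.67e-09), and so did PLOD1, at 0.10 and -0.29, a difference of 0.38 (adjusted p = 9.42e-05). The shYY2 call of PLOD1 was lost without shYY2 replicate 1 (0.08) or shControl replicate 3 (0.06), and that of CA12 without shYY2 replicate 1 (-0.42) or 2 (-0.41) and by the DESeq2 Wald test (-0.45, adjusted p = 0.121), and the shFOXRED1 call of EGLN3 without shControl replicate 2 (0.33). The knockdowns were sequenced in separate experiments whose shControl libraries also differed in 3 of these 5 genes, by 0.96 in EGLN3, -3.06 in CA12 and 0.98 in NDRG1. FOXRED1 itself fell with both shYY2 (-0.89) and shFOXRED1 (-0.78).

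P4HA2 rose with HFD (0.46) and was lower with HA-TRIM15 (-0.11), and the HFD effect minus the HA-TRIM15 effect was 0.60 (adjusted p = 5.68e-09). Its HA-TRIM15 call was lost without HA-TRIM15 replicate 2 or 3 or any 1 EV library (adjusted p from 0.0687 to 0.146) and by the DESeq2 Wald test (adjusted p = 0.0886).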

How the results depend on the processing

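The number of members called kept within 1.5 times its value in each comparison under DESeq2 size factors, no filter and the replicate block. For the alternative runs, here and above, the matching shares of all genes are not given, so their counts describe the members only. By the DESeq2 Wald test 3 members were called lower with HA-TRIM15 in place of 5. Leaving out 1 library at a time gave 5 to 11 calls for HA-TRIM15 (2 to 6 higher, 2 to 5 lower) and 3 to 5 lower calls for HFD, the lowest values coming without HA-TRIM15 replicate 2 or 3, any 1 EV library, or HFD replicate 2. Against EV alone, the YY2 shControl alone or both, ND was lower in HIF1A (-0.13, -0.14 and -0.13) and EGLN3 (-0.19, -0.25 and -0.21) and higher in CA12 (0.29, 0.64 and 0.46). P4HA1 was -0.16 against the YY2 shControl and -0.00562 against both, BNIP3L -0.0234 against the YY2 shControl, and FAM162A -0.0306 and ZNF395 -0.0137 against EV. Among members not called, values left the sign of the full set when 1 library was left out, with ranges of -0.00875 to 0.0863 for VHL and -0.064 to 0.089 for EGLN1 with HA-TRIM15, -0.0505 to 0.376 for CA9 with shYY2, -0.00929 to 0.027 for VHL with shFOXRED1, -0.0083 to 0.0254 for VEGFA between the shControls and -0.00566 to 0.0759 for ADM between diet and HA-TRIM15. VEGFA there was -0.000513 with DESeq2 size factors and -0.000609 by the DESeq2 Wald test.

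With the replicate number as a block, 14 members were called for HFD, 9 for HA-TRIM15, 24 for shYY2, 19 for shFOXRED1, 21 for the difference of the knockdowns and 16 for that of diet and HA-TRIM15. Shares of all genes called under the block are not given here, so these counts are not a result about the members. EPAS1 and ANKRD37 lost their calls for HFD under the block, WSB1 and KDM4C gained one for shYY2, and in the difference of diet and HA-TRIM15 BHLHE40 lost its call and FAM162A gained one. Outside the FOXRED1 experiment the libraries may share only a number. No paired analysis was possible for ND against culture or between the shControls because these libraries come from different experiments. Low counts limit CA9, STC2, LOXL2 and ANKRD37, all under 6 CPM in every library. They also limit BNIP3, whose group means ran from 2.90 to 4.08 CPM.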
